A study of Mus musculus with 24 samples.

Results

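Oral succinate was compared with regular water in the distal jejunum of female mice that lack Ptk6, an intracellular tyrosine kinase of the gut epithelium. The comparison holds 6 of the 24 RNA-seq libraries of the series, 3 from Ptk6-/- females on regular water and 3 from Ptk6-/- females given 100 mM succinate, which the study's methods place in the drinking water for 7 days. All 6 mice carried the germline disruption of Ptk6, on a C57BL/6 background, and were 9 to 11 weeks old when the experiments ended. The study's methods describe age-matched animals from different litters of 1 breeding colony, and the labels number the libraries as biological replicates 1 to 3 in each group. Libraries were chosen by genotype, sex and treatment alone, and genes were kept when at least 10 reads were counted in at least 3 of the 6 libraries, which left 19334 of 56691 genes. Results are set beside 2 comparisons that share none of these libraries, succinate in wild type females and succinate in Ptk6-/- males, each again 3 libraries against 3.

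Succinate is made by gut microbes and protists and is sensed in the small intestine by tuft cells, rare chemosensory cells of the epithelium, through the receptor SUCNR1. Signalling through a taste-type G protein, phospholipase C and the cation channel TRPM5 makes tuft cells release interleukin 25 and cysteinyl leukotrienes. These act on group 2 innate lymphoid cells, whose interleukin 13 acts through STAT6 on epithelial progenitors and raises the number of tuft and goblet cells. RNA came from whole tissue, so more cells of a type and more RNA per cell cannot be told apart.

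Total counts ranged from 34248289 to 50024575 in the 6 libraries and from 8080321 to 52824743 in the series. Ptk6 itself, the targeted gene, had 24, 31 and 33 reads in the control libraries and 51, 16 and 18 in the succinate libraries, against 284 to 2229 in wild type females, and the groups overlapped. The related kinase Frk was measured at 68.3, 98.8 and 64.9 CPM (counts scaled to the normalized library size) without and 60.1, 61.2 and 81.0 with succinate, and Srms had 16 reads at most. Control replicate 3 and succinate replicate 2 stood apart: among the controls replicate 3 was highest for 17 of 18 T cell genes, 5 of 5 erythrocyte genes and 6 of 6 small proline-rich protein genes (41.9% of all genes), and among the succinate libraries replicate 2 was highest for 8 of 11 mast cell genes and 12 of 18 type 2 cytokine genes (40.2% of all genes). The slope over genes of the log2 level on log2 gene length was 0.271 and 0.269 in these 2 libraries and 0.410 to 0.527 in the other 4, and with an offset for gene length 20 genes were called, 16 of them among the 17 described next. Lct, the lactase of jejunal enterocytes, was read in all 6 libraries, at 8.64 to 426 CPM. Correlations of log2(CPM + 1) over genes with a mean of at least 1 CPM were 0.90 to 0.98 among control libraries, 0.930 to 0.972 among succinate libraries and 0.853 to 0.965 between the groups.

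Succinate raised 17 genes in Ptk6-/- females and lowered none at an adjusted p below 0.05 and a change of at least 2-fold (edgeR quasi-likelihood test with Benjamini-Hochberg adjustment). These were 0.0879% of the genes tested. They include the gasdermin C cluster of chromosome 15, the lipid mediator genes Pla2g4c and Alox5, the tuft cell genes Avil and Rgs13, the transporter Slc28a1, the channel subunit Kcnj16 and the metabolic enzyme Me1. At an unadjusted p below 0.05 there were 2060 genes (10.7%), 930 higher and 1130 lower with succinate, and the median log2 fold change of all genes was -0.04. This 10.7% is the share of all genes to set beside the unadjusted counts of the lists below. In all 17 genes the 3 succinate libraries lay above the 3 control libraries, which their choice by a test on the same libraries largely fixes. Over all genes 10.2% showed this pattern and 11% the reverse.

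**Figure D1:**
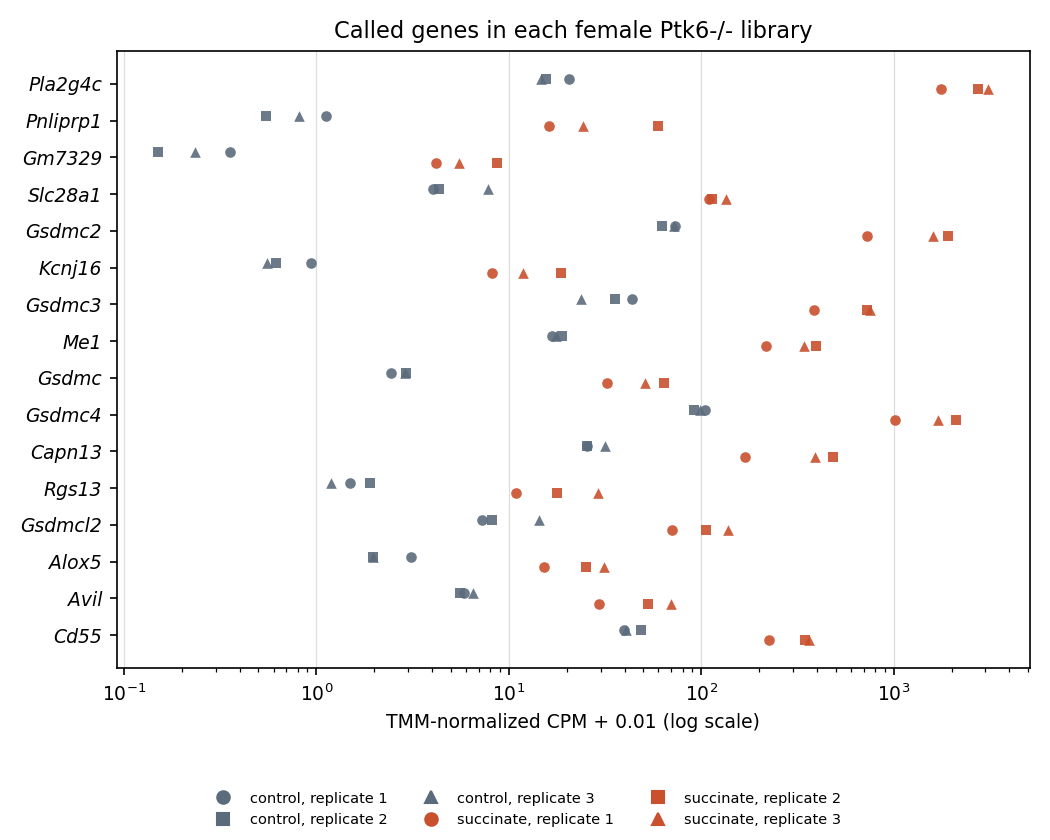
TMM-normalized CPM plus 0.01 (log scale) of 16 of the 17 genes raised by succinate, 1 symbol per library, with 3 control and 3 succinate libraries of Ptk6-/- females. For every gene the succinate libraries lie to the right of the controls, and succinate replicate 1 is the lowest of its group in 16 of 16.

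Pla2g4c, a cytosolic phospholipase A2 that frees fatty acids from membrane lipids, showed the smallest p of the whole table. It lies on chromosome 7 (GRCm39, chr7:13058580-13094597, plus strand). Its level was 20.5, 15.5 and 14.8 CPM in the control libraries and 1759, 2729 and 3102 CPM in the succinate libraries. The lowest succinate library was far above the highest control, and the group means were 16.9 ± 3.12 and 2530 ± 693 CPM (SD, n = 3 each). The log2 fold change was 7.22 ± 0.48 (SE), a 149-fold increase, with an adjusted p of 0.00926 in edgeR. On the per-length FPKM scale the mean level went from 3.10 ± 1.02 to 521 ± 158.

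In the gasdermin C cluster on chromosome 15 (GRCm39) 5 genes rose. Gasdermins are pore-forming proteins of the plasma membrane, and the C branch is known from the intestinal epithelium. The cluster runs from Gsdmc (chr15:63647817-63680608) through Gsdmc2 (chr15:63696195-63717026), Gsdmc3 (chr15:63729573-63750407) and the non-coding Gsdmcl2 (chr15:63752556-63762361) to Gsdmc4 (chr15:63763113-63784146). Gsdmcl2 is on the plus strand and the others are on the minus strand. Gsdmc4 was measured at 105, 92.1 and 98.8 CPM in controls and at 1014, 2108 and 1700 CPM with succinate. Gsdmc2 was measured at 73.0, 62.7 and 72.6 CPM in controls and at 726, 1912 and 1604 CPM with succinate. Gsdmc3 was measured at 43.6, 35.8 and 23.6 CPM in controls and at 385, 724 and 751 CPM with succinate. In each of these 3 genes the lowest succinate library, replicate 1, was still several times the highest control.

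Gsdmc was at a lower level, with 2.45, 2.91 and 2.89 CPM in controls and 32.3, 64.0 and 50.9 CPM with succinate. Gsdmcl2 had 7.23, 8.20 and 14.4 CPM in controls and 70.1, 106 and 138 CPM with succinate. No control library of either gene reached a succinate library. The increases were 20.4-fold for Gsdmc2, 18-fold for Gsdmc3, 17.8-fold for Gsdmc, 16.3-fold for Gsdmc4 and 10.5-fold for Gsdmcl2, with log2 fold changes of 4.35 ± 0.47, 4.17 ± 0.43, 4.16 ± 0.34, 4.03 ± 0.41 and 3.39 ± 0.40 (SE). Adjusted p-values (edgeR) were 0.0125 for Gsdmc, 0.0409 for Gsdmc2, Gsdmc3 and Gsdmc4, and 0.0494 for Gsdmcl2. Per length, the mean levels with succinate were 587 ± 176 FPKM for Gsdmc4, 465 ± 188 for Gsdmc2, 205 ± 69.0 for Gsdmc3, 25.5 ± 9.52 for Gsdmcl2 and 15.5 ± 4.29 for Gsdmc. Gsdmc4 was at 384, 702 and 675 FPKM in the succinate libraries and Gsdmc2 at 248, 574 and 575 FPKM, so that their ranges overlapped while Gsdmc4 was the higher of the pair in each library. Gsdmcl2 was likewise above Gsdmc in each succinate library, with overlapping ranges, and Gsdmc3 lay between the pairs. The genes are close copies: 19.3% of the 150-base stretches of the Gsdmc3 transcripts also occur in Gsdmc2 or Gsdmc4, against 16.6% for Gsdmc2, 8.83% for Gsdmc4, 3.15% for Gsdmc and none for Gsdmcl2, so reads could be split between the first 4 in ways that the counts do not show.

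The gasdermin and caspase list, with the called gasdermin C genes included, gave values in both directions. Of 20 genes tested, 4 were called, all gasdermin C genes, and the median log2 fold change of the 20 was -0.49 (-0.23 without control replicate 3). The log2 fold change was positive for 8 and negative for 12. The succinate libraries lay above all controls for 6 (10.2% of all genes), among them the 4 called genes. They lay below all controls for 7 (11%), none of them called in edgeR. DESeq2 called 5 of the 20 higher (1.08% of all genes) and 2 lower (0.839%), the latter Casp4 and Gsdme. Gsdme, a pore-forming gasdermin described here after its values were seen, had 88.0, 99.9 and 144 CPM in controls and 41.8, 10.6 and 16.8 CPM with succinate, with an adjusted p of 0.279. No succinate library of Gsdme reached a control library.

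Slc28a1, a sodium-coupled nucleoside transporter of the brush border (chr7:80764547-80820164, plus strand), had 4.04, 4.34 and 7.77 CPM in controls and 109, 114 and 135 CPM with succinate. The 3 succinate libraries were closer to each other than for the other raised genes. The increase was 22.2-fold, a log2 fold change of 4.47 ± 0.36 (SE), with an adjusted p of 0.0125 in edgeR. Kcnj16, which codes for an inwardly rectifying potassium channel subunit, had 0.931, 0.609 and 0.546 CPM in controls and 8.22, 18.7 and 11.8 CPM with succinate. Its increase was 18.5-fold, at an adjusted p of 0.0409, from a level near the detection limit.

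Me1, the cytosolic malic enzyme that makes NADPH (chr9:86463424-86578006, minus strand), had 16.7, 18.9 and 17.6 CPM in controls and 218, 396 and 342 CPM with succinate. The controls were nearly equal and the succinate libraries 18-fold higher, with a log2 fold change of 4.17 ± 0.34 (SE) and an adjusted p of 0.0125. Gm7329, a processed pseudogene of 210 bases (chr1:65134386-65134595, plus strand), had 0.346, 0.141 and 0.225 CPM in controls and 4.20, 8.70 and 5.50 CPM with succinate, at an adjusted p of 0.0433. Of its 61 stretches of 150 bases, 37 (60.7%) also occur in Me1, so its reads may belong to Me1 and the 17 calls may stand for 16 genes. Pnliprp1, a relative of pancreatic lipase, had 1.12, 0.539 and 0.803 CPM in controls and 16.2, 59.5 and 24.3 CPM with succinate. Its increase was 40.6-fold at an adjusted p of 0.0458 (a log2 fold change of 5.34, and 4.63 without succinate replicate 2). Of 16 pancreas genes listed, 3 were tested and overlapped between the groups. Among those untested, Cpa1, Prss2, Ctrb1 and Cel had at most 0, 0, 4 and 5 reads in a library, and the rest had no entry under their symbols. Pnliprp2, a close relative, and Clps, which codes for colipase, are outside that list and were named after their values were seen; both were also higher in every succinate library. Pnliprp2 had 133, 40.6 and 43.0 CPM in controls and 1005, 3157 and 1292 CPM with succinate, and Clps had 62.0, 32.0 and 224 CPM in controls and 258, 1746 and 436 CPM with succinate, with adjusted p-values of 0.127 and 0.402. The part of pancreatic tissue in these values was not tested.

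Alox5, the 5-lipoxygenase that starts leukotriene synthesis, had 3.11, 1.97 and 1.96 CPM in controls and 15.1, 25.3 and 31.2 CPM with succinate. The increase was 10.2-fold, with a log2 fold change of 3.34 ± 0.38 (SE) and an adjusted p of 0.0458 in edgeR. Avil, the actin-bundling protein advillin and a tuft cell marker, had 5.82, 5.55 and 6.49 CPM in controls and 29.4, 52.9 and 69.9 CPM with succinate, an 8.52-fold increase with an adjusted p of 0.0494. The Avil gene overlaps Tsfm on the other strand, which had at most 1496 reads. Rgs13, a regulator of G protein signalling, had 1.49, 1.90 and 1.19 CPM in controls and 10.8, 17.7 and 29.2 CPM with succinate, a 12.6-fold increase with an adjusted p of 0.0494. In each of these 3 genes replicate 1 was the lowest and replicate 3 the highest succinate library, and no control reached them.

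Cd55, a membrane inhibitor of complement, had 39.8, 48.7 and 40.9 CPM in controls and 225, 346 and 365 CPM with succinate. Its 7.23-fold increase was the smallest of the 17, with an adjusted p of 0.0409. Capn13, a calpain protease, had 25.6, 25.6 and 31.6 CPM in controls and 169, 486 and 390 CPM with succinate, a 12.6-fold increase with an adjusted p of 0.0494. Both genes were thus well measured in every library and separated the groups.

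How many genes were called depended on single libraries and on the tool. Leaving out control replicate 1, control replicate 2, succinate replicate 2 or succinate replicate 3 left 0 calls in edgeR, leaving out control replicate 3 left 3 and leaving out succinate replicate 1 gave 29, of which 8 were lower. DESeq2 called 424 of the 22043 genes to which it gave an adjusted p, 239 higher (1.08%) and 185 lower (0.839%), among them all 17. The direction of the 17 was upward in each alternative run, and that of Pla2g4c lay between 6.87 and 7.43 on the log2 scale.

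Promoters are shown for genes raised together, because interleukin 13 acts through STAT6, a factor that binds TTC and GAA separated by a short spacer. RefSeq promoter sequences (GRCm38.p6, 250 bases before to 50 bases after the start) were at hand for 11 of the 17 raised genes and for 7 of the next 10 described further on. The letters TTCNNNNGAA, which read the same on both strands, occurred in 1 of the 11 genes, Slc28a1, where the match starts 47 bases before the start, and in 1 of the 7, Sprr2a3, where it starts 176 bases before the start. Counted by promoter, 1 of 16 of the raised genes and 1 of 7 of the next genes hold these letters, against 2284 of all 32851 (6.95%). The octamer ATTTGCAT, bound by POU factors such as the tuft cell regulator POU2F3, was read on both strands. It occurred in 0 of the 11 genes (0 of 16 promoters) and in 1 of the 7, Egln3 (1 of 7 promoters), against 570 of all promoters (1.74%). A match to letters is a description of the sequence and not a binding site. The promoter of Slc28a1 (chr7:81114549-81114848, plus strand), of Sprr2a3 (chr3:92285054-92285353, plus strand), of the upstream start of Pla2g4c (chr7:13325417-13325716, plus strand) and of Gsdmc3 (chr15:63878509-63878808, minus strand) are given 5′ to 3′, with the TTCNNNNGAA match in capitals for the first 2 and no match in the other 2.
Slc28a1: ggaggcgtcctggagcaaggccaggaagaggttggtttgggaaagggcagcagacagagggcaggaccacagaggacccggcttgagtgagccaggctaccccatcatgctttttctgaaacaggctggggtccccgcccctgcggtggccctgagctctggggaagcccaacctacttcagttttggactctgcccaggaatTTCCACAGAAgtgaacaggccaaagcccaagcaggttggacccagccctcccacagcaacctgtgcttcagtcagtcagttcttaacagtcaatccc
Sprr2a3: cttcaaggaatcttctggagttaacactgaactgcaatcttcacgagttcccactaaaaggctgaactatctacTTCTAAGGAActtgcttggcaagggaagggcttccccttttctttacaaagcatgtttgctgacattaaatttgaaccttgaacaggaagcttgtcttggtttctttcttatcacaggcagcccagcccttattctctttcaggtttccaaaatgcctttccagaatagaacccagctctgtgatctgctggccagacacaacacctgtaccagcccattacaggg
Pla2g4c: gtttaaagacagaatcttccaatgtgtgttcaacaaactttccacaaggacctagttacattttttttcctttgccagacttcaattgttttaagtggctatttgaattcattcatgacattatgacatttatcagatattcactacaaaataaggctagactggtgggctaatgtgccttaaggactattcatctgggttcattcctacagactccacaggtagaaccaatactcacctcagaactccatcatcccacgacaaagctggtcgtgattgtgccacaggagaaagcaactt
Gsdmc3: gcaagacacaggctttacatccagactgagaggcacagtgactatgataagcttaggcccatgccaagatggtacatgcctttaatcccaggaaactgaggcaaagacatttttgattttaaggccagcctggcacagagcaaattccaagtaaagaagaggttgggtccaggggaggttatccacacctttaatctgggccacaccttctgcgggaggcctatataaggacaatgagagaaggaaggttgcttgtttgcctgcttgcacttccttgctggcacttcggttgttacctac

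The genes raised in Ptk6-/- females were also higher in each succinate library of the wild type females, and in Ptk6-/- males none of those tested separated the groups. In wild type females the 17 genes had log2 fold changes of 2.40 or more, and for 17 of 17 the succinate libraries lay above the controls (6.41% of all genes did so there, and 6.66% lay below). None of the 17 was called in wild type females, where edgeR called 0 of 18872 genes, with 1466 at an unadjusted p below 0.05 and a smallest adjusted p of 0.114. In Ptk6-/- males 16 of the 17 passed the count minimum, their log2 fold changes ran from -0.80 to 1.68, and the succinate libraries lay above the controls for 0 of 16 (11.4% of all genes did so there, and 12.4% lay below). EdgeR called 0 of 18966 genes in these males, with 1470 at an unadjusted p below 0.05 and a smallest adjusted p of 0.147.

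**Figure D2:**
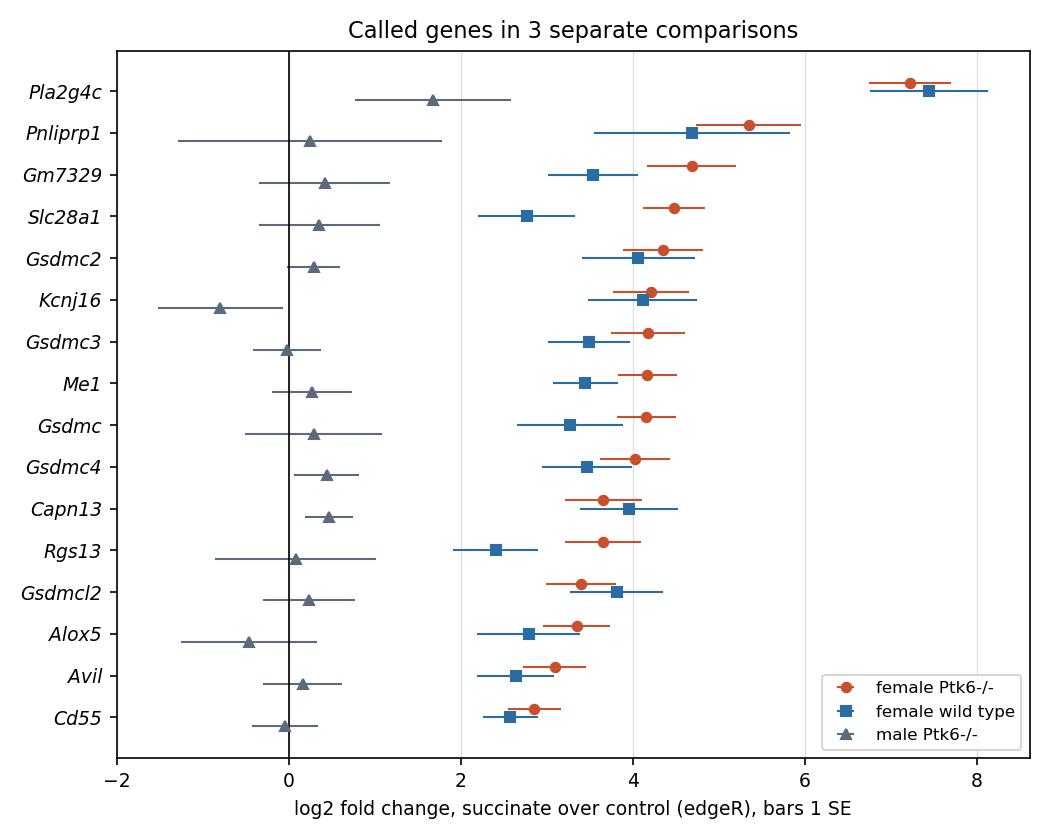
Log2 fold change with succinate (edgeR, bars 1 SE) of 16 of the 17 genes in Ptk6-/- females, wild type females and Ptk6-/- males, 3 libraries against 3 in each. The points of both female comparisons lie at 2.40 or more, and those of the 16 genes tested in males between -0.80 and 1.68.

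Levels in single libraries show the same order. Pla2g4c had 9.78, 4.38 and 5.11 CPM in wild type female controls and 1729, 1122 and 512 CPM with succinate. In Ptk6-/- males it had 5.01, 12.7 and 2.83 CPM in controls and 20.9, 2.97 and 41.7 CPM with succinate. Thus 3 of 3 succinate libraries stood above the controls in wild type females and 2 of 3 in males. Gsdmc2 had 63.4, 34.6 and 34.3 CPM in wild type female controls and 1208, 771 and 231 CPM with succinate. In males Gsdmc2 had 44.8, 38.4 and 37.1 CPM in controls and 37.2, 35.8 and 73.2 CPM with succinate, so that the groups overlapped. Me1 had 20.6, 19.2 and 25.6 CPM in male controls and 14.5, 15.6 and 47.8 CPM with succinate, again overlapping.

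Tests of the difference between the comparisons share the 6 Ptk6-/- female libraries with the choice of the 17 genes, so their counts over these genes are given without reading. The sex by succinate term in Ptk6-/- mice called 0 of 20471 genes at an adjusted p below 0.05 in edgeR, with 1458 (7.12%) at an unadjusted p below 0.05 and a smallest adjusted p of 0.104. For the 17 genes the unadjusted p was below 0.05 in 17 and the adjusted p was 0.104 to 0.452. For this term DESeq2 called 175 of 31725 genes with a p-value, limma with voom weights 32 of 20471 and limma on log2 FPKM 41 of 14084. Of these calls 16, 9 and 14 were among the 17. The term was 5.56 ± 1.08 (SE) on the log2 scale for Pla2g4c, 4.20 ± 0.60 for Gsdmc3 and 4.07 ± 0.55 for Gsdmc2. The genotype by succinate term in females called 0 of 20531 genes in edgeR, with 1327 (6.46%) at an unadjusted p below 0.05 and a smallest adjusted p of 0.752. DESeq2 called 58 genes for it, 0 of them among the 17, and Slc28a1 alone of the 17 had an unadjusted p below 0.05 (0.0214).

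Both outside comparisons hold a library with values against its label or depth. Succinate replicate 2 of the wild type females had 935 reads of the Y-linked gene Eif2s3y, where no Ptk6-/- female library had more than 4. Its 9 tested striated muscle genes, of heart and skeletal muscle, summed to 9285 CPM against 55.0 to 174 CPM in the other 5 libraries of the wild type females. Without it 16 of the 17 genes were tested, all 16 stayed non-overlapping and higher (9.07% of all genes), and 0 were called. Succinate replicate 1 of the Ptk6-/- males had a total of 8080321 counts, the lowest of the series. Its gene-length slope of 0.172 was also the lowest of the series. The ribosomal RNA entry Rn18s-rs5 held 29.7% of its counts, against 4.49% and 0.212% in male succinate replicates 2 and 3. Without male succinate replicate 1, 1 of 16 genes was non-overlapping and higher (16.7% of all genes) and 0 of the 17 were called.

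The chemosensory genes of tuft cells were mostly higher with succinate, although few passed the adjusted test. Of 14 genes tested in this list, 1 was called (Rgs13), 9 had all succinate libraries above the controls (10.2% of all genes) and 0 had them below (11%), and the median log2 fold change was 2.44 against -0.04 for all genes. Some members passed the count minimum only through the succinate libraries: over the 10 genes with 10 counts in each library the median was 1.57, and over the 11 left without succinate replicate 1, 2 or 3 it was 0.91, 0.81 and 0.54. The filter largely fixes the separation of such members, so the counts over the 14 genes are not read against the shares of all genes. The receptor Sucnr1 had 0.372, 0.469 and 1.09 CPM in controls and 1.83, 3.64 and 5.46 CPM with succinate. The groups did not overlap, and the log2 fold change was 2.50 ± 0.60 (SE) with an adjusted p of 0.291. Its G protein subunits Gnat3 and Gng13 had log2 fold changes of 3.52 and 3.00 with adjusted p-values of 0.343 and 0.433. The phospholipase Plcb2 (0.58) and the calcium release channel Itpr2 (0.76) had smaller values. Irag2, a protein of the calcium store, had 7.29, 13.2 and 8.41 CPM in controls and 34.5, 82.9 and 71.4 CPM with succinate, with a log2 fold change of 2.70 ± 0.42 and an adjusted p of 0.126. The cation channel Trpm5 had 7.69, 13.3 and 13.2 CPM in controls and 32.7, 59.3 and 85.6 CPM with succinate, with a log2 fold change of 2.38 ± 0.42 and an adjusted p of 0.163. For both genes every succinate library stood above every control. Trpm5 and Gng13 overlap Tssc4 and Chtf18 on the other strand, which had up to 2146 and 711 reads, and reads could be shared. The list median was 2.30 in wild type females (1.92 without the library with Y-linked reads) and -0.09 in Ptk6-/- males. DESeq2 called 7 of the 14 higher (1.08% of all genes) and none lower, with the members that passed the count minimum only through succinate included.

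Of 26 genes of tuft cell identity and structure, 1 was called (Avil), 20 had all succinate libraries above the controls (10.2% of all genes) and 2 below (11%), and the median log2 fold change was 1.77. The lineage regulator Pou2f3 had 1.09, 1.05 and 1.64 CPM in controls and 7.81, 10.02 and 19.6 CPM with succinate, with a log2 fold change of 3.31 ± 0.45 and an adjusted p of 0.0844. Dclk1, a kinase used as a tuft cell marker, had 3.35, 5.98 and 3.60 CPM in controls and 15.8, 22.9 and 43.4 CPM with succinate, with a log2 fold change of 2.67 ± 0.45 and an adjusted p of 0.148. Replicate 3 was the highest succinate library for both, and neither gene overlapped between the groups. Among the 29 genes of both tuft lists whose succinate libraries all lay above the controls, succinate replicate 1 was the lowest of its group for 26. The list median was 1.64 in wild type females (1.26 without the library with Y-linked reads) and 0.04 in Ptk6-/- males. DESeq2 called 14 of the 26 higher, against 1.08% of all genes, and none lower.

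Besides Pla2g4c and Alox5, edgeR called no gene of the eicosanoid synthesis list, and DESeq2 called Alox5ap as a further one (3 of 15 higher, 1.08% of all genes). Of 15 tested, 7 had all succinate libraries above the controls (10.2% of all genes) and 2 below (11%), and the median log2 fold change was 0.66. It was 0.32 with voom, 0.47 with a replicate block and 0.94 with limma on log2(FPKM + 0.1). Alox5ap, the protein that presents arachidonic acid to 5-lipoxygenase, had 2.85, 1.85 and 6.20 CPM in controls and 14.1, 60.8 and 26.5 CPM with succinate, with a log2 fold change of 3.22 ± 0.66 and an adjusted p of 0.239. Ltc4s, the leukotriene C4 synthase, had 1.25, 1.45 and 11.1 CPM in controls and 9.87, 39.7 and 10.8 CPM with succinate. The groups overlapped for Ltc4s because control replicate 3 stood above 2 of the succinate libraries. The cyclooxygenase gene Ptgs1 had 22.5, 21.2 and 17.4 CPM in controls and 26.6, 30.6 and 27.1 CPM with succinate, a log2 fold change of 0.46. Summed over the list, the level was 521, 458 and 580 CPM in controls and 2290, 3347 and 3622 CPM with succinate, where Pla2g4c was the largest part.

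The cytokines of the circuit were near the detection limit. Il25, the tuft cell cytokine, had 4, 0 and 0 reads in controls and 3, 61 and 28 reads with succinate, below the count minimum for testing. Il5 had 0, 4 and 2 reads in controls and 13, 60 and 6 with succinate, also untested. Il13 had 0, 0 and 0 reads in controls and 27, 175 and 37 with succinate. Against a floor of 3 reads per library Il13 was at least 20.3-fold higher with succinate, or at least 7.42-fold without succinate replicate 2, and its adjusted p was 0.251. Succinate replicate 2 held the most reads of all 3 cytokines. Il17rb, a subunit of the interleukin 25 receptor, had 1.86, 2.86 and 1.99 CPM in controls and 4.45, 12.3 and 12.5 CPM with succinate, with an adjusted p of 0.251, and it overlaps Actr8 on the other strand, which had up to 1294 reads. The receptor subunits Il4ra and Il13ra1, through which interleukin 13 signals, had log2 fold changes of -0.31 and -0.28, while the decoy receptor Il13ra2 had 0, 0 and 0 reads in controls and 0, 154 and 26 with succinate. Of 18 genes tested in this list, 0 were called in edgeR, 8 had an unadjusted p below 0.05, 7 had all succinate libraries above the controls (10.2% of all genes) and 2 below (11%), and the median log2 fold change was 0.89. It was 0.51 without control replicate 1, 0.40 over the 15 genes left without succinate replicate 2 and 0.35 over the 14 with 10 counts in each library. DESeq2 called 5 of the 17 to which it gave an adjusted p, all higher (1.08% of all genes). Some members, Il13 among them, passed the count minimum only through the succinate libraries. The counts of this list are therefore not read against the shares of all genes.

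**Figure D3:**
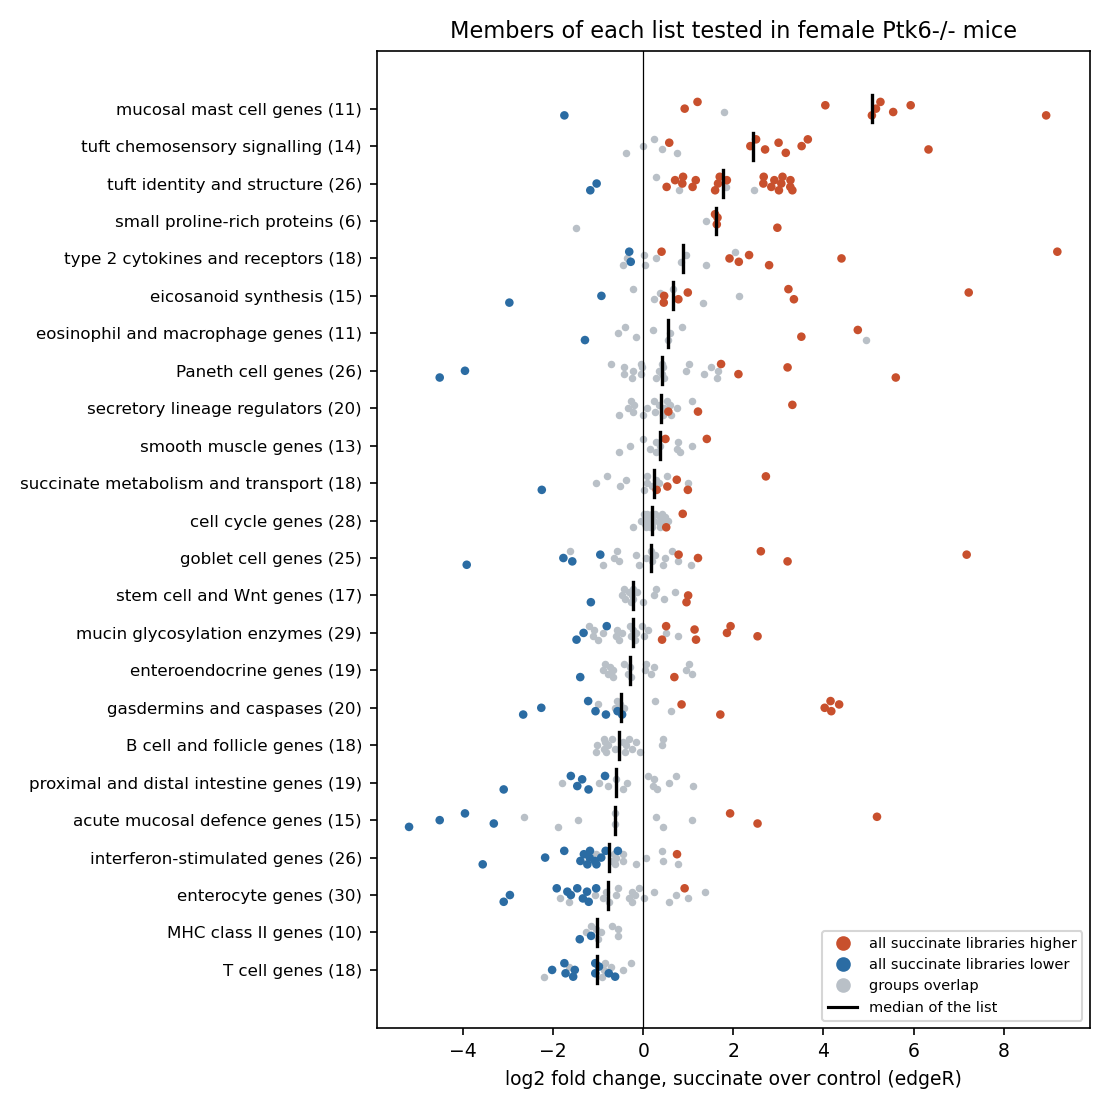
Log2 fold change with succinate (edgeR) of each tested member of 24 gene lists in Ptk6-/- females, coloured by whether all succinate libraries lay above the controls, below them or overlapped, with the list median as a bar. The medians run from -1.02 for T cell and MHC class II genes to 5.07 for mucosal mast cell genes, the latter 1.20 over the 5 genes with 10 counts in each library.

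Goblet cell genes gave values in both directions. Of 25 tested, 0 were called in edgeR, 9 had an unadjusted p below 0.05, 5 had all succinate libraries above the controls (10.2% of all genes) and 4 below (11%), and DESeq2 called 3 higher and 3 lower (1.08% and 0.839% of all genes). The median log2 fold change was 0.17, and it was -0.02, 0.04 and 0.05 without succinate replicate 2, control replicate 1 and control replicate 3. Retnlb, the resistin-like molecule beta secreted by goblet cells, had 0.585, 0.562 and 0.803 CPM in controls and 12.2, 235 and 35.2 CPM with succinate. Its log2 fold change was 7.18 ± 1.20 (SE) with an adjusted p of 0.148. The succinate libraries differed widely, with replicate 2 highest, and all stood above the controls. Ang4, an antimicrobial ribonuclease of goblet and Paneth cells, had 516, 185 and 651 CPM in controls and 2729, 7181 and 2541 CPM with succinate, with an adjusted p of 0.247. Clca1, a secreted mucus-processing protein, had a log2 fold change of 0.79 and an adjusted p of 0.499. The main gel-forming mucin Muc2 went the other way, at 3296, 7360.4 and 8249.6 CPM in controls and 1908, 1430.4 and 3009.9 CPM with succinate, with a log2 fold change of -1.57 and an adjusted p of 0.407. P2ry4, a nucleotide receptor, had 2.58, 8.06 and 0.642 CPM in controls and 0.272, 0.108 and 0.356 CPM with succinate, with an adjusted p of 0.296. For Muc2 and P2ry4 every succinate library was below every control.

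Of 26 Paneth cell genes tested, 0 were called in edgeR, 8 had an unadjusted p below 0.05, 4 had all succinate libraries above the controls and 2 below, near the shares of 10.2% and 11% over all genes, and DESeq2 called 4 higher and 2 lower (1.08% and 0.839% of all genes). The small proline-rich proteins, cross-linked barrier proteins of epithelia, had 0 calls in edgeR among 6 tested, 4 at an unadjusted p below 0.05 and 4 with all succinate libraries above the controls (10.2% of all genes), and DESeq2 called those 4 (1.08% of all genes). Sprr2a3 had 154, 207 and 318 CPM in controls and 1759, 1722 and 1865 CPM with succinate. The succinate libraries of Sprr2a3 were nearly equal, and the log2 fold change was 2.98 ± 0.39 with an adjusted p of 0.0767. Of its 150-base stretches 19.0% also occur in Sprr2a1 or Sprr2a2, so these copies could share reads. Summed over the family, the level was 4301, 5399 and 14821 CPM in controls and 28183, 26627 and 24776 CPM with succinate, with control replicate 3 the highest control.

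Sprr2a3, Pou2f3 and 8 further genes made up the next 10 by p among genes that were higher without overlap. Their adjusted p-values in edgeR were 0.0654 to 0.102, above the threshold. DESeq2 called all 10 higher, against 1.08% of all genes, on the same libraries by which they were chosen. That count is therefore given without reading. Egln3, a prolyl hydroxylase of the hypoxia pathway whose reaction releases succinate, had 33.3, 38.5 and 48.9 CPM in controls and 160, 383 and 254 CPM with succinate. Naaa, a lipid amidase, had 30, 32.0 and 29.2 CPM in controls and 88.6, 117 and 102 CPM with succinate. The controls of Naaa were nearly equal, and the log2 fold changes of Egln3 and Naaa were 2.72 ± 0.39 and 1.75 ± 0.24 (SE). Defb1, a beta-defensin, had 0, 0 and 0 reads in controls and 79, 145 and 110 with succinate, at least 27.3-fold higher against a floor of 3 reads per library. Defb1 passed the count minimum only through the succinate libraries, which largely fixes its separation. Sh2d7 (3.26 on the log2 scale), an adaptor with an SH2 domain, Siglecf (3.01), a sialic acid-binding lectin, Ffar3 (3.16), a receptor for short-chain fatty acids, and Mptx1 (5.6), a mucosal pentraxin, were also among the 10. Of these 10 genes, 9 were higher without overlap in wild type females (6.41% of all genes) and 1 of 9 tested in Ptk6-/- males (11.4%).

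Mast cell genes differed most in succinate replicate 2. Of 11 tested, 0 were called in edgeR, 9 had an unadjusted p below 0.05, 9 had all succinate libraries above the controls (10.2% of all genes) and 1 below (11%), and DESeq2 called 4 higher (1.08% of all genes) of the 9 to which it gave an adjusted p. The median log2 fold change was 5.07 over the 11 genes and 1.20 over the 5 with 10 counts in each library, since each of the others had under 10 reads in a control library. Over the 8 genes left without succinate replicate 1, 2 or 3 it was 3.32, 1.69 and 3.35. The genes that dropped out had passed the count minimum only through the succinate libraries, which largely fixes their separation. The counts over the 11 genes are therefore not read against the shares of all genes. The mast cell protease Mcpt2 had 1.99, 0.516 and 1.93 CPM in controls and 11, 144 and 15 CPM with succinate, with an adjusted p of 0.254. Mcpt1, named after its values were seen, had 5.45, 1.73 and 9.99 CPM in controls and 35.6, 715 and 50.9 CPM with succinate. Replicates 1 and 3 thus stood above the controls by much less than replicate 2. The summed list was at 64.4, 65.8 and 80.5 CPM in controls and 116, 979 and 138 CPM with succinate. The macrophage and eosinophil genes gave 0 calls in edgeR among 11 tested and 4 at an unadjusted p below 0.05 (10.7% of all genes). DESeq2 called 1 of 10 with an adjusted p, higher (1.08% of all genes). All succinate libraries lay above the controls for 2 of the 11 (10.2% of all genes) and below for 1 (11%). The median log2 fold change was 0.54, and it turned to -0.25 without succinate replicate 2. Retnla, a marker of alternatively activated macrophages, had 1.04, 0.328 and 2.18 CPM in controls and 6.12, 82.6 and 6.70 CPM with succinate, again highest in replicate 2, and the eosinophil peroxidase gene Epx had no read in any library.

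**Figure D4:**
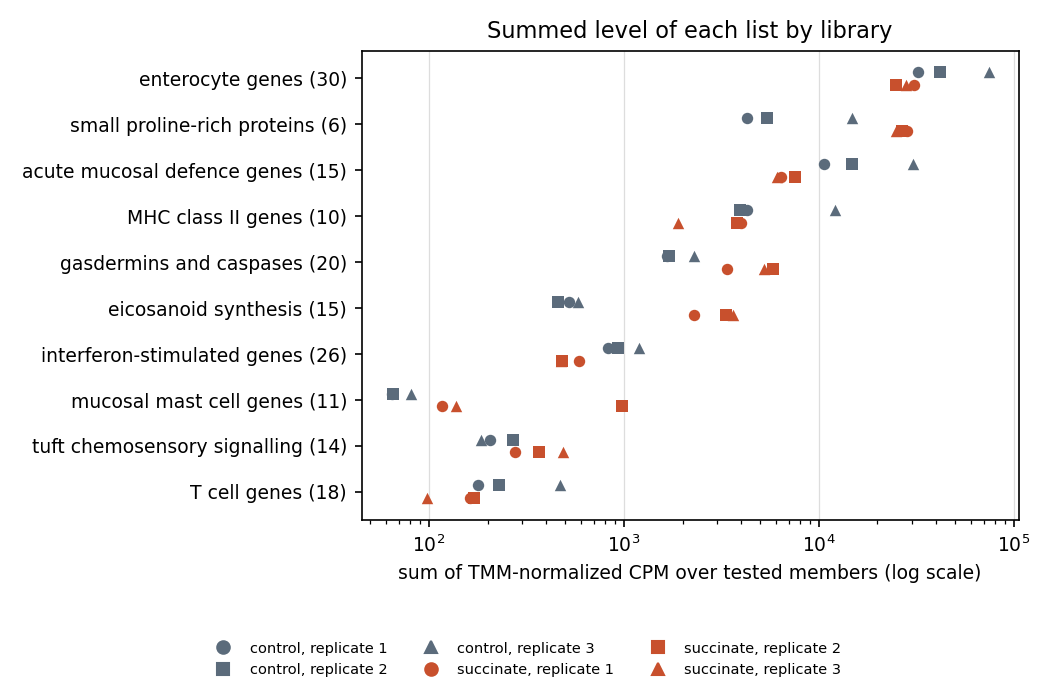
Sum of TMM-normalized CPM (log scale) over the tested members of each list in each of the 6 libraries of Ptk6-/- females. Succinate replicate 2 is far above replicates 1 and 3 for mucosal mast cell genes (979 against 116 and 138 CPM), and control replicate 3 is above the other controls for MHC class II and T cell genes.

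With all 6 libraries edgeR called no gene lower, while DESeq2 called 185, voom 69 and the fit over all 24 libraries 45. EdgeR called 8 lower without succinate replicate 1. The 10 genes with the smallest p among those that were lower without overlap had adjusted p-values of 0.113 to 0.163 in edgeR. On the same libraries DESeq2 (0.839% of all genes lower) and voom called all 10, while the fit over all 24 libraries called 1, Casp4. The 10 were chosen on these libraries, so these counts are given without reading. Casp4, the caspase that senses cytosolic lipopolysaccharide, had 41.0, 52.3 and 103 CPM in controls and 12.3, 8.70 and 9.92 CPM with succinate. Ifit1bl1, of the interferon-induced Ifit family, had 119, 168 and 144 CPM in controls and 20.8, 4.07 and 11.6 CPM with succinate. Zc3h12a, a ribonuclease that degrades cytokine mRNA, had 96.9, 105 and 86.6 CPM in controls and 38.3, 19.5 and 29.9 CPM with succinate. Their log2 fold changes were -2.66 ± 0.40, -3.56 ± 0.58 and -1.72 ± 0.31 (SE), and succinate replicate 1 was the highest succinate library for each.

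Suox, the mitochondrial sulfite oxidase, had 172, 275 and 273 CPM in controls and 78.6, 43.9 and 53.1 CPM with succinate. Nf1, a negative regulator of Ras, had 20.4, 19.3 and 26.8 CPM in controls and 7.48, 6.49 and 9.0 CPM with succinate. The Nf1 gene, with up to 835 reads, overlaps Evi2b, Evi2 and Evi2a on the other strand. These had up to 468, 335 and 314 reads, and reads could be shared. Tnfrsf14, the herpesvirus entry mediator, had 20.4, 18.6 and 30.1 CPM in controls and 8.49, 7.45 and 6.64 CPM with succinate. None of these genes overlapped between the groups, and their log2 fold changes were -2.03 ± 0.34, -1.53 ± 0.27 and -1.61 ± 0.29 (SE). Gbp6 (-2.35), an interferon-induced GTPase of which 43.4% of stretches are shared with Gm43302 or Gbp10, Trpm6 (-2.68), a magnesium channel, Pkhd1 (-3.63), which codes for fibrocystin, and Meltf (-5.21), the melanotransferrin gene, were the other 4. In wild type females 8 of the 10 had the same sign and 3 were lower without overlap (6.66% of all genes), and in Ptk6-/- males 0 of 10 were (12.4%). Both interaction terms include the Ptk6-/- female libraries on which these 10 genes were chosen, so their counts are given without reading. The genotype by succinate term was below an unadjusted p of 0.05 (edgeR) for 3 of the 10, among them Nf1 (0.00194), against 6.46% of all genes. The sex by succinate term was below it for 10 of 10, against 7.12% of all genes. None passed the adjusted test for either term.

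**Figure D5:**
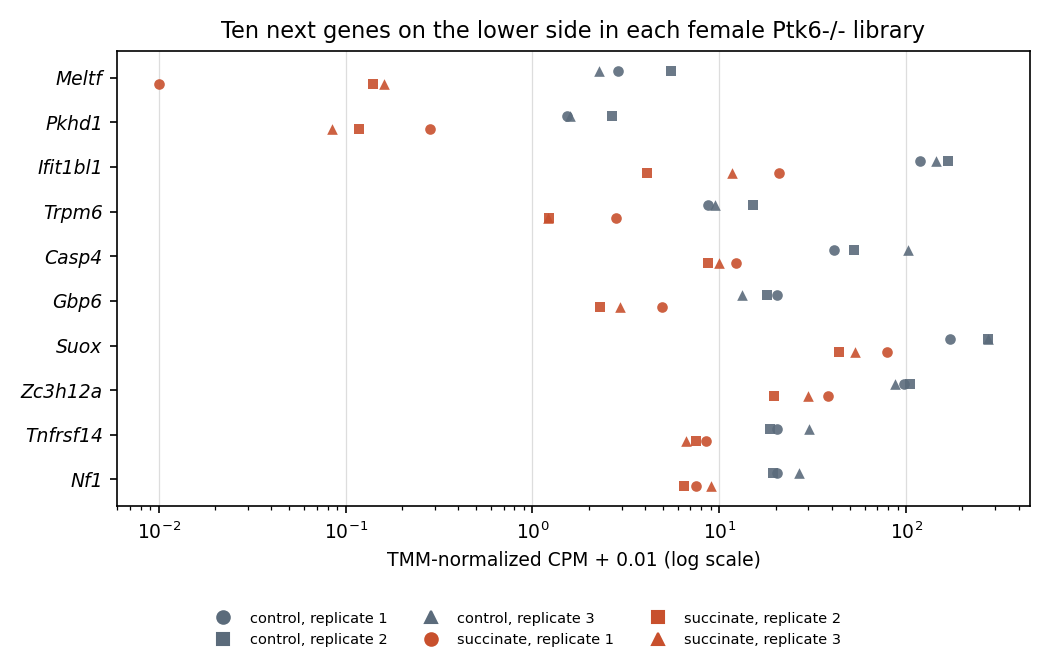
TMM-normalized CPM plus 0.01 (log scale) of the 10 genes with the smallest p among those lower without overlap in succinate-treated Ptk6-/- females, 1 symbol per library. No succinate library reaches a control library in any of them, and adjusted p-values were 0.113 to 0.163.

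Interferon-stimulated genes leaned downward. Of 26 tested, 0 were called in edgeR, 12 had an unadjusted p below 0.05, 13 had all succinate libraries below the controls (11% of all genes) and 1 above (10.2%), and DESeq2 called 3 lower (0.839% of all genes). Their median log2 fold change was -0.76 against -0.04 for all genes, and -0.26 in wild type females (-0.50 without the library with Y-linked reads) and 0.10 in Ptk6-/- males. In Ptk6-/- females it was -0.49 without control replicate 3 and succinate replicate 2. With limma on log2(FPKM + 1) and log2(FPKM + 0.1) it was -0.29 and -0.43, where the median of all genes was 0.15 and 0.23. Ifit1, an RNA-binding antiviral protein, had 25.5, 29.0 and 30.3 CPM in controls and 9.73, 2.79 and 6.21 CPM with succinate, with an adjusted p of 0.239. The summed list was at 832, 939 and 1195 CPM in controls and 587, 482 and 477 CPM with succinate. No succinate library reached a control library in this sum.

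T cell genes and MHC class II genes had medians of -1.02 each, and their values moved with single libraries. Of 18 T cell genes tested, 0 were called in edgeR, 10 had an unadjusted p below 0.05 and 10 had all succinate libraries below the controls (11% of all genes), and DESeq2 called 3 lower (0.839% of all genes). The summed T cell genes were at 179, 229 and 471 CPM in controls and 163, 171 and 97.9 CPM with succinate. The median log2 fold change of the T cell list was -0.65 without control replicate 3 and -0.52 without control replicate 3 and succinate replicate 2. Cd4, the coreceptor of helper T cells, had 9.71, 12.2 and 15.9 CPM in controls and 5.61, 2.21 and 5.01 CPM with succinate, with an adjusted p of 0.339. Of 10 MHC class II genes, 0 were called in edgeR or DESeq2, 1 had an unadjusted p below 0.05, and the median was -0.41 without control replicate 3. Ciita, the transactivator of these genes, had 38.0, 40.3 and 24.7 CPM in controls and 14.8, 7.43 and 16.5 CPM with succinate, without overlap, with an adjusted p of 0.339, and it overlaps Dexi on the other strand, which had up to 1585 reads. Of 18 B cell and follicle genes 0 were called in edgeR or DESeq2, 0 had an unadjusted p below 0.05, and none separated the groups.

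Acute defence genes of the mucosa also gave values in both directions. Of 15 tested, 0 were called in edgeR, 8 had an unadjusted p below 0.05, 3 had all succinate libraries above the controls (10.2% of all genes) and 4 below (11%), and DESeq2 called 3 higher and 4 lower (1.08% and 0.839% of all genes). Reg4, a secreted lectin of the Reg family, had 41.2, 20.8 and 77.9 CPM in controls and 617, 3520 and 959 CPM with succinate, with a log2 fold change of 5.19 ± 0.88 and an adjusted p of 0.148. Fut2, the fucosyltransferase of the epithelial surface, had 7.37, 11 and 18.6 CPM in controls and 39.3, 82.8 and 92.4 CPM with succinate, with a log2 fold change of 2.54 ± 0.46 and an adjusted p of 0.175. Both were higher in every succinate library than in any control. Nos2 and Reg3g, named after their values were seen, were lower. Nos2, the inducible nitric oxide synthase, had 253, 437 and 329 CPM in controls and 22.4, 2.06 and 3.30 CPM with succinate, with a log2 fold change of -5.20 ± 0.97 and an adjusted p of 0.193. Reg3g, a bactericidal lectin, had 2194, 2937 and 15084 CPM in controls and 621, 165 and 96.9 CPM with succinate, with an adjusted p of 0.290. No succinate library reached a control for either gene, and succinate replicate 1 was the nearest to the controls.

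Absorptive enterocyte genes had a median log2 fold change of -0.79 over 30 tested, with 0 calls in edgeR, 9 at an unadjusted p below 0.05, 10 with all succinate libraries below the controls (11% of all genes) and 1 above (10.2%), and 3 of 29 called lower by DESeq2 (0.839% of all genes). The median was -0.50 without control replicate 3, -0.51 without succinate replicate 2 and -0.19 without both. With voom it was -0.20, and voom called 2 members higher, Rbp2 and Slc2a5, and 0 lower. Slc10a2, the ileal bile acid transporter and a gene of the distal intestine, had 42.3, 77.0 and 61.7 CPM in controls and 27.1, 15.2 and 17.1 CPM with succinate, with an adjusted p of 0.251. Slc2a5, the fructose transporter, had 30.4, 32.5 and 31.2 CPM in controls and 67.3, 41.8 and 68.7 CPM with succinate, with an adjusted p of 0.378. These 2 enterocyte genes separated the groups in opposite directions. Of 19 genes that mark the proximal or distal intestine, 6 had all succinate libraries below the controls (11% of all genes), 0 above (10.2%), 0 were called in edgeR, 5 had an unadjusted p below 0.05, DESeq2 called 2 lower (0.839% of all genes), and the median was -0.60 (-0.39 without control replicate 3, and -0.23 without that library and succinate replicate 2).

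Proliferation, stem cell and hormone genes gave no calls in edgeR. Of 28 cell cycle genes 0 were called in edgeR or DESeq2, 0 had an unadjusted p below 0.05, and the median log2 fold change was 0.20 (0.11 to 0.37 without single libraries). The log2 fold change was positive for 26 of the 28, against 9123 of all 19334 genes, and the groups overlapped for 26. Of 17 stem cell and Wnt genes 0 were called by either tool and 3 had an unadjusted p below 0.05 (10.7% of all genes). Axin2, a Wnt target, had 99.2, 85.6 and 69.7 CPM in controls and 52.1, 20.8 and 40.8 CPM with succinate, with an adjusted p of 0.402. Of 19 enteroendocrine genes 0 were called by either tool and 1 had an unadjusted p below 0.05 (10.7% of all genes). Among 18 genes of succinate metabolism and transport, 0 were called in edgeR, 3 had an unadjusted p below 0.05 (10.7% of all genes) and DESeq2 called 1 higher (1.08%). All succinate libraries lay above the controls for 5 of them (10.2% of all genes) and below for 1 (11%). Sdhd, a membrane anchor of succinate dehydrogenase, had 124, 124 and 133 CPM in controls and 236, 308 and 212 CPM with succinate, with a log2 fold change of 0.99 ± 0.27 and an adjusted p of 0.345. Among 29 mucin glycosylation enzymes, 0 were called in edgeR, 8 had an unadjusted p below 0.05 (10.7% of all genes) and DESeq2 called 3 higher (1.08%). All succinate libraries lay above the controls for 7 of them (10.2% of all genes) and below for 3 (11%). St3gal6, a sialyltransferase, had 17.4, 16.7 and 23.3 CPM in controls and 40.9, 102 and 65.5 CPM with succinate, with an adjusted p of 0.234. Of 20 regulators of secretory lineages 0 were called in edgeR, 2 had an unadjusted p below 0.05 (10.7% of all genes) and DESeq2 called 1 higher, Pou2f3 (1.08%). All succinate libraries lay above the controls for 3 of them (10.2% of all genes) and below for 0 (11%). Spdef, the goblet cell regulator, had 27.7, 23.0 and 37.3 CPM in controls and 47.6, 109 and 48.1 CPM with succinate, with an adjusted p of 0.404. Sdhd, St3gal6 and Spdef were each higher in 3 of 3 succinate libraries, and Axin2 was lower in 3 of 3.

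Markers of other tissues were tested in the same way. In edgeR 0 of 13 smooth muscle, 9 striated muscle, 7 lung, 3 pancreas and 5 erythrocyte genes were called. At an unadjusted p below 0.05 there were 1, 3, 1, 0 and 0, against 10.7% of all genes. DESeq2 called 1 smooth and 1 striated muscle gene higher, against 1.08% of all genes. Single libraries moved the median log2 fold change of each of these lists by over 1.5 times. The erythrocyte median was -1.11 and turned to 0.26 without control replicate 3 (-0.52 without succinate replicate 3). The striated muscle median was 0.39 and ran from -0.07 without succinate replicate 2 to 0.83 without control replicate 3. The smooth muscle median was 0.38 (0.66 without control replicate 3), the lung median -0.54 (-0.17 without control replicate 3 to -0.88 without control replicate 1) and the pancreas median 0.87 (0.30 without control replicate 2 and 0.44 without control replicate 1). Xist, the sex-linked gene tested, had a log2 fold change of -0.37 and overlapped between the groups.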

How the data were processed

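Poly(A) RNA of whole distal jejunum was sequenced by the authors from stranded libraries as paired-end reads. Per the study's methods, reads were trimmed with Cutadapt, aligned with HISAT2 and assembled with StringTie, and the submitters' notes name GRCm39. The deposited counts are raw reads per gene, and the counting program and strand setting are not given in the sources used here. The deposited FPKM values, made by the authors with StringTie and ballgown, served for names, per-length levels and 1 set of alternatives.

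Counts with at least 10 reads in at least 3 of 6 libraries were TMM-normalized and tested with edgeR 4.0.16 (quasi-likelihood, R 4.3.3, no block), with Benjamini-Hochberg adjustment over all genes tested and calls at an adjusted p below 0.05 and at least 2-fold. CPM are TMM-normalized. Interaction terms were fitted over 12 libraries with no fold threshold. Alternatives used DESeq2 1.42.0 and limma 3.58.1, with voom or on log2(FPKM + 1) and log2(FPKM + 0.1), and left out single libraries. Gene length was taken from the ratio of deposited counts to FPKM. Methods were tested on simulated data, of which no result is given here. The study's own comparison tool was DESeq2.

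Members and gene lists were chosen with earlier results of these data known. Named were all called genes, the next 10 in each direction by p (no overlap, mean of at least 1 CPM, no predicted gene), the 2 smallest p per list, and genes of set roles. Some genes under this rule are not reported here singly, and counts include them. Lists also covered smooth and striated muscle, lung, pancreas, erythrocyte and sex-linked genes.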

Additional observations from a re-analysis of the deposited data

How the results depend on the processing

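The 17 calls became 424 with DESeq2, 200 with voom and sample weights, 132 when all 24 libraries shared 1 fit, 33 and 39 with limma on log2(FPKM + 1) and log2(FPKM + 0.1), and 3 with log2(FPKM + 1) and no filter. DESeq2 and the 24-library fit kept all 17 and voom kept 16, and the voom calls were 131 higher and 69 lower, those of the 24-library fit 87 and 45. The median log2 fold change of all genes, -0.04 in edgeR, was 0.15 and 0.23 on these FPKM scales over the 14271 genes that passed their filter. Leaving out single libraries gave 0 to 29 calls, and leaving out control replicate 3 and succinate replicate 2, whose counts changed least with gene length, an alternative chosen after seeing the data (as were leaving out the wild type library with Y-linked reads for list medians, and single libraries for bounds against the floor), gave 65 (53 higher, 12 lower). Other size factors, count filters, a gene-length offset and no fold threshold gave 16 to 20. The sex by succinate term went from 0 to 175 with DESeq2, 32 with voom, 41 with limma on FPKM and 5 in the 24-library fit, and leaving out single libraries gave 0 to 15. The genotype by succinate term went from 0 to 58 with DESeq2 and stayed at 0 when single libraries were left out. List medians moved too. Over 19 alternatives the median ran from 0.54 to 2.56 for tuft chemosensory genes and from 1.25 to 2.06 for tuft identity genes. It ran from 0.32 to 0.94 for eicosanoid, 0.24 to 0.92 for type 2 cytokine and 1.03 to 5.47 for mast cell genes. For interferon-stimulated, T cell and enterocyte genes it ran from -1.03 to -0.25, -1.25 to -0.52 and -1.05 to -0.19. The cause of these differences was not tested. Ptk6 turned to 0.00 with voom (main -0.53), and Frk (main -0.20) to 0.01 with log2(FPKM + 1), with and without a filter, to 0.02 with log2(FPKM + 0.1) and to 0.05 without control replicate 2 (-0.33 to 0.05 without single libraries), so neither has a settled direction. With a replicate block 0 genes were called, alone (1076 at an unadjusted p below 0.05) or with the gene-length offset (1468). Same-numbered libraries deviated with correlations of 0.06, -0.53 and -0.47, and none correlated best with its own number (control replicate 2 with succinate replicate 3 gave 0.55, control replicate 3 with succinate replicate 2 gave 0.46). Deviations within a group of 3 depend on each other, so these values cannot decide whether same-numbered libraries shared handling. The labels do not say so either. Both interaction terms also gave 0 with the block. With 3 libraries a group, a single value can reach no exact permutation p below 0.1, and genes under about 1 CPM rest on few reads.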
